A study of Mus musculus with 8 samples.

Results

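The mitochondrial ribosomal proteins were taken as all probe sets whose only platform gene symbol begins with Mrpl or Mrps followed by a number. The rule found 156 probe sets of 76 genes, among 45037 probe sets of the array that are not controls and 18193 genes with a probe set of their own. The large subunit (Mrpl) had 104 probe sets of 47 genes and the small subunit (Mrps) had 52 probe sets of 29 genes. Another 4 probe sets carry an Mrpl or Mrps symbol together with a second gene's symbol and were not used as members.

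Mitochondria translate their own small genome with a separate ribosome. Its proteins are all encoded in the nucleus, made in the cytosol and imported, and they assemble on rRNA transcribed inside the organelle. Its products are core subunits of the respiratory chain and of ATP synthase. Many of its proteins descend from bacterial ribosomal proteins, while others were gained in the mitochondrial lineage. Blood monocytes comprise a classical subset, which enters inflamed tissue, and a nonclassical subset, which patrols the vessel wall.

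The samples were Gr1lo (Ly6Clo) and Gr1hi (Ly6Chi) monocytes sorted from 12-week-old C57Bl/6 mice, with no treatment or genetic alteration named in the labels. Each sort started from the pooled leukocytes of 5 mice, and 4 separate sorts gave 4 arrays for each subset, so that no array shows a single animal. The question was how gene expression differs between these subsets. Per the labels' protocols, in vitro transcription ran for 64 h in place of 4 h before hybridisation to 3' arrays; values are probe set intensities, given here on the log2 scale. Their precision is limited by the 4 arrays in each subset.

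By limma with an adjusted p under 0.05, all 7 classical monocyte marker genes were lower in Ly6Clo cells, and 11 of 12 nonclassical marker genes were higher in Ly6Clo cells, as the sort labels state. Among genes of other leukocytes, 3 of 8 tested neutrophil genes, 3 of 6 B cell genes and 3 of 6 dendritic cell genes were lower in Ly6Clo cells. The summed intensity of the neutrophil list was 1514 to 1850 in Ly6Clo arrays and 2117 to 2740 in Ly6Chi arrays, with Mmp9 and Cxcr2 not over the table median. For B cell genes the sum was 829 to 1160 in Ly6Clo arrays and 1074 to 1542 in Ly6Chi arrays, with Cr2, Fcrla and Ebf1 not over it. The dendritic cell sum was 1482 to 1568 in Ly6Clo arrays and 2019 to 2557 in Ly6Chi arrays, with Xcr1 not over the median. Of the NK cell list, 2 of 3 tested genes were higher in Ly6Clo cells (sum 1061 to 1283 in Ly6Clo arrays and 786 to 868 in Ly6Chi arrays). The defining NK genes Eomes, Ncr1 and Prf1 were not over the median. No tested T cell (6), platelet (6) or red cell (2) gene was called by limma; at an unadjusted p under 0.05, 1 T cell gene and 1 platelet gene were higher in Ly6Clo. The red cell genes Epb42 and Hba-a1 were not over the median. The part of these other cells in the results that follow was not tested.

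The promoters of 5 genes are shown because they belong to members with large differences or with the NRF1 core and, for Mrps6, to the member higher in Ly6Clo in both probe sets. Each line gives the 150 bases before the annotated start on the gene's strand, 5' to 3', from RefSeq on GRCm38.p6, with motif matches in capitals. Mrpl39 (chr16:84735245-84735394, minus strand) and Mrpl32 (chr13:14613038-14613187, minus strand) hold the core site of NRF1, a factor known for driving nuclear genes of mitochondria, on both strands at once, so that the matches overlap. Mrpl33 (chr5:31613801-31613950, plus strand) holds the core on 1 strand. Mrpl58 (chr11:115403602-115403751, plus strand) holds an ETS site, and its annotated gene begins 28 bases before the start used here. Mrps6 (chr16:92058186-92058335, plus strand) holds no motif that was searched.
Mrpl39: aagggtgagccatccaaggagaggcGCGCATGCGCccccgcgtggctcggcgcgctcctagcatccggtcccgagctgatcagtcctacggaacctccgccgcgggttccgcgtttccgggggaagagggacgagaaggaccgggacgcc
Mrpl32: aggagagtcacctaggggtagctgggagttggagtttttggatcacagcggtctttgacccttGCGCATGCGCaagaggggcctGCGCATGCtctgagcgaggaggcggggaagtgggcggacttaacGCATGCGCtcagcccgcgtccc
Mrpl33: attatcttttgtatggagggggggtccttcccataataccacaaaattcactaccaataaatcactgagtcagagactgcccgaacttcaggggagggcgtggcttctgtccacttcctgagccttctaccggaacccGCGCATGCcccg
Mrpl58: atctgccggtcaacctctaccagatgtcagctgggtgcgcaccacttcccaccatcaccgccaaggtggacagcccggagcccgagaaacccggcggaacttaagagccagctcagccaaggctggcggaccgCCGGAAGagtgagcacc
Mrps6: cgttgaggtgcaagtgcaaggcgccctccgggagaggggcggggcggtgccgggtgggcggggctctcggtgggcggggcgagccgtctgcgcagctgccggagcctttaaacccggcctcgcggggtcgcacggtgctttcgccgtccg

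Of the 47 large subunit genes, 20 were called lower in Ly6Clo monocytes, 1 was called higher and 26 were not called. A probe set was tested if its intensity passed the median of the table (81.9, log2 6.36) in at least 4 of 8 arrays, and it was called at a limma adjusted p under 0.05 over all 22831 probe sets tested. Of 84 tested large subunit probe sets, 1 was called higher in Ly6Clo, 30 were called lower in Ly6Clo and 53 were not called. Over all tested probe sets, 31.1% were called, 15.2% higher and 15.9% lower in Ly6Clo; of the large subunit, 1.19% were higher and 35.7% lower. The gene counts take the brightest tested probe set of each gene. Over 11546 genes counted that way, 14.1% were called higher and 18.5% lower. The median difference, Ly6Clo minus Ly6Chi, was -0.15 over the 84 probe sets and 0.01 over all tested probe sets. Calls lower in Ly6Clo numbered 18 without both arrays numbered 1, or 21.4% of the 84, against 12.5% of all tested probe sets then. In these bulk samples, fewer cells of a type and less RNA per cell cannot be told apart.

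In the small subunit, 10 of 29 genes were called lower in Ly6Clo, 1 was called higher and 18 were not called. Of 47 tested probe sets, 3 were called higher in Ly6Clo, 12 were called lower in Ly6Clo and 32 were not called, or 6.38% and 25.5% in each direction. The median difference was -0.12. The difference between the subunits in their share of calls was not tested. Without replicate 3 of Ly6Clo the calls lower in Ly6Clo were 7 (14.9% of the 47, against 14.3% of all tested probe sets). Without both arrays numbered 1 they were 4 (8.51%, against 12.5% of all), so that the share lay below that of all probe sets. The 3 calls higher in Ly6Clo became 1 without replicate 2 or 4 of Ly6Clo, or without replicate 4 of Ly6Chi. The median was -0.08 without replicate 1 of Ly6Chi.

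**Figure D1:**
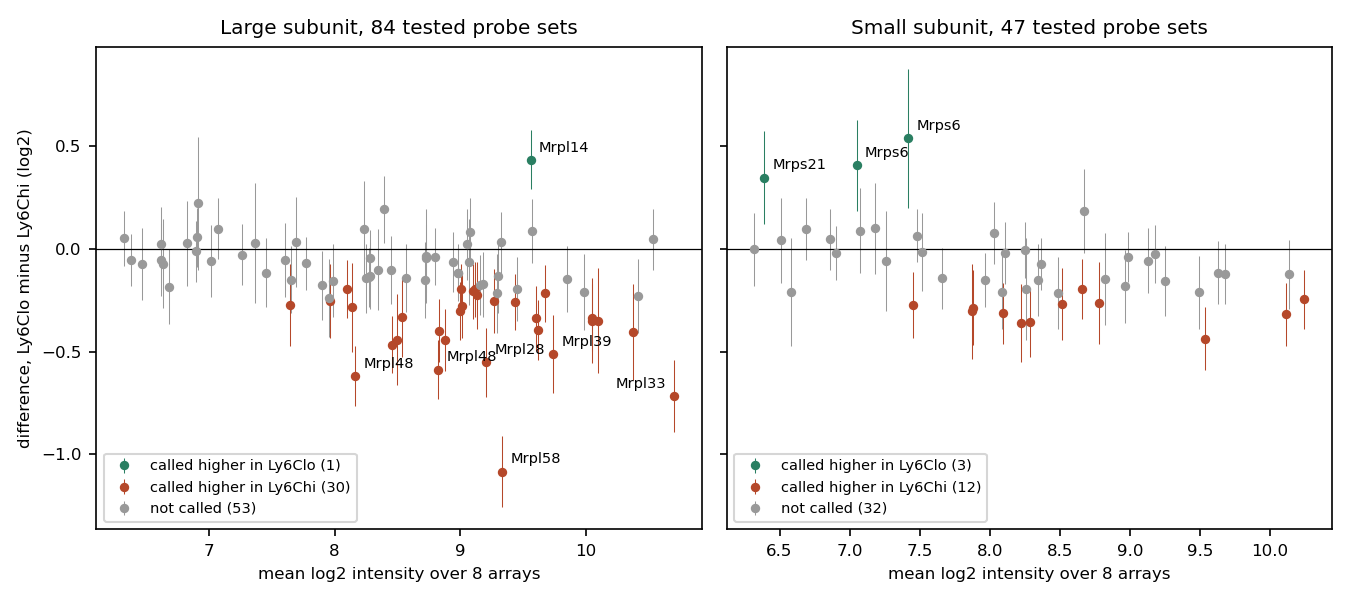
Difference (Ly6Clo minus Ly6Chi, log2) against mean log2 intensity over 8 arrays for the 84 large and 47 small subunit probe sets tested, with 95% intervals. Most points lie below 0; Mrpl58 lies lowest at -1.08, while Mrpl14 and both Mrps6 probe sets lie above 0.

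Of the 131 tested probe sets of both subunits, 39 (29.8%) were lower in Ly6Clo with no overlap between the subsets, against 16.4% of all tested probe sets. Of these 39, 34 were among the 42 called lower in Ly6Clo. The fold of the 42 was 1.14 to 2.12 with a median of 1.25, and 4 reached 1.5-fold. Mrpl58 was the only called probe set of the family to reach 2-fold. Among the 85 probe sets not called, 62 differences were below 0 and 23 were above 0, between -0.24 and 0.22. Of the 131 tested probe sets, 124 passed the intensity filter in all 8 arrays and 0 passed it through only 1 subset.

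Mrpl58 encodes a peptidyl-tRNA hydrolase built into the large subunit, which in human cells frees unfinished chains from stalled mitochondrial ribosomes. Its probe set 1460308_a_at read 8.77, 8.97, 8.71 and 8.72 in Ly6Clo replicates 1 to 4, against 10.00, 9.81, 9.92 and 9.78 in Ly6Chi replicates 1 to 4. Every Ly6Clo array lay below every Ly6Chi array. The difference was -1.08 ± 0.08 (SE, n = 4 each), or 2.12-fold, with a limma adjusted p of 1.1e-06.

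Mrpl33, a homolog of a bacterial large subunit protein, came next (1448190_at). It read 10.46, 10.47, 10.24 and 10.22 in Ly6Clo arrays, against 11.16, 11.02, 11.10 and 10.97 in Ly6Chi arrays. The subsets did not overlap, and within Ly6Clo replicates 3 and 4 were the lower ones. The difference was -0.72 ± 0.08 (SE), or 1.64-fold, with a limma adjusted p of 3.1e-05.

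Mrpl48 sits in the central protuberance, the crown of the large subunit that faces the small one, and has no bacterial counterpart. Probe set 1428302_at read 8.55, 8.61, 8.47 and 8.48 in Ly6Clo arrays, against 9.16, 9.02, 9.19 and 9.10 in Ly6Chi arrays. A second probe set, 1437997_x_at, read 7.91, 7.80, 7.85 and 7.86 in Ly6Clo arrays, against 8.54, 8.48, 8.55 and 8.33 in Ly6Chi arrays. Neither overlapped between subsets. The differences were -0.59 ± 0.06 and -0.62 ± 0.07 (SE), with limma adjusted p of 3.1e-05 and 2.7e-05.

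Mrpl39, a mitochondria-specific protein near the exit of the polypeptide tunnel, was lower in Ly6Clo with both of its tested probe sets. 1448909_a_at read 9.52, 9.53, 9.35 and 9.54 in Ly6Clo arrays, against 10.16, 9.96, 10.09 and 9.79 in Ly6Chi arrays. Replicate 4 was the lowest Ly6Chi array and still lay above all Ly6Clo arrays. Its difference was -0.51 ± 0.09 (SE; limma adjusted p 0.00074), and that of 1417966_at was -0.44 ± 0.10 (SE; limma adjusted p 0.0054).

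Mrpl28 and Mrpl9 are homologs of bacterial proteins with 3 tested probe sets each, all lower in Ly6Clo. For Mrpl28, 1437622_x_at read 9.05, 8.88, 8.99 and 8.80 in Ly6Clo arrays, against 9.55, 9.50, 9.56 and 9.32 in Ly6Chi arrays. The 3 Mrpl28 differences were -0.55, -0.44 and -0.30, with limma adjusted p of 0.0002, 0.00042 and 0.0034. No Mrpl28 probe set overlapped between subsets. For Mrpl9, 1437749_s_at read 8.26, 8.20, 8.29 and 8.14 in Ly6Clo arrays, against 8.78, 8.69, 8.66 and 8.63 in Ly6Chi arrays. The 3 Mrpl9 differences were -0.47, -0.40 and -0.25 with limma adjusted p of 0.00015, 0.00096 and 0.036; the dimmest, 1430976_a_at, overlapped between subsets.

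Mrpl14 was the only large subunit gene called higher in Ly6Clo. It encodes a homolog of a bacterial protein on the face that meets the small subunit. 1451307_at read 9.73, 9.72, 9.79 and 9.87 in Ly6Clo arrays, against 9.46, 9.28, 9.33 and 9.32 in Ly6Chi arrays. The subsets did not overlap. The difference was 0.43 ± 0.07 (SE), or 1.35-fold, with a limma adjusted p of 0.00034. It was called in each of the 19 alternative settings, between 0.40 and 0.49.

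**Figure D2:**
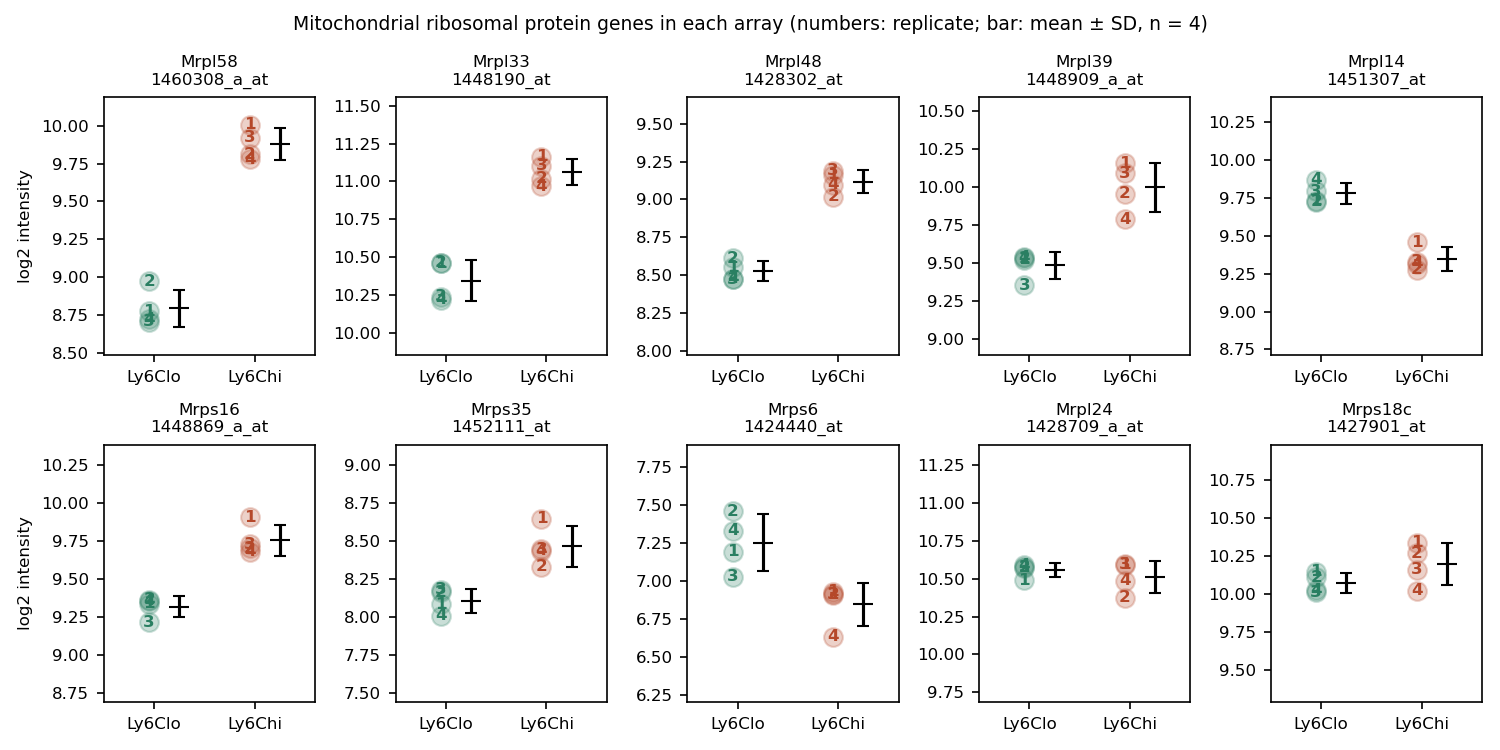
Log2 intensity in each array (numbers are replicates) with mean ± SD (n = 4) for 10 probe sets; each panel spans the same 1.7 log2 units. Mrpl58, Mrpl33, Mrpl48, Mrpl39, Mrps16 and Mrps35 lie lower in Ly6Clo, Mrpl14 and Mrps6 lie higher, and the uncalled Mrpl24 and Mrps18c overlap.

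By origin, 15 of 51 tested probe sets of large subunit proteins with a bacterial homolog were lower in Ly6Clo, 1 was higher and 35 were not called. The share lower was 29.4%, against 15.9% of all tested probe sets. Of 32 probe sets of mitochondria-specific large subunit proteins, 15 (46.9%) were lower and 17 were not called. The difference between these 2 classes was not tested. Other called members with bacterial homologs included Mrpl4, whose bacterial counterpart lines the exit tunnel. Mrpl4 differed by -0.39 (limma adjusted p 0.00078). Mrpl32, a protein trimmed by a mitochondrial protease before it joins the ribosome, differed by -0.34 (limma adjusted p 0.0037).

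By place in the subunit, 8 of 14 probe sets at the tunnel exit were not called. The other 6 (42.9%, against 15.9% of all tested probe sets) were lower in Ly6Clo. Beside Mrpl39 these belonged to Mrpl22, Mrpl44 and Mrpl45, the last of which helps hold the ribosome at the inner membrane in mammals. Mrpl22 differed by -0.28 (limma adjusted p 0.011) and Mrpl45 by -0.27 (limma adjusted p 0.041), with overlap for Mrpl45. Of the genes listed here for the central protuberance, which did not include Mrpl58, 3 of 9 probe sets (33.3%) were lower in Ly6Clo. These were 2 of Mrpl48 and 1 of Mrpl27 (-0.26, limma adjusted p 0.0075). None of the 7 tested probe sets of the stalk, which recruits translation factors, was called by limma, and 0 had an unadjusted p under 0.05. Their differences lay between -0.14 and 0.05.

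Mitochondria-specific members with a call also included Mrpl43, Mrpl41, Mrpl52 and Mrpl37. Mrpl43 differed by -0.33 (limma adjusted p 0.0048). Mrpl41 differed by -0.33 and -0.23 in its 2 tested probe sets (limma adjusted p 0.012 and 0.037). The 3 tested Mrpl52 probe sets were called, with differences of -0.41, -0.35 and -0.35, yet all 3 overlapped between subsets. Replicate 4 of Ly6Chi was the lowest Ly6Chi array (10.28 for 1460701_a_at, against 10.63 to 10.72 in the other Ly6Chi arrays). A dimmer probe set of Mrpl41 and one of Mrpl52 did not pass the intensity filter and differed by 0.13 and 0.14.

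The brightest large subunit probe sets without a call belonged to Mrpl24, Mrpl57 and Mrpl23. Mrpl24, at the tunnel exit, read 10.49, 10.57, 10.57 and 10.59 in Ly6Clo arrays, against 10.59, 10.37, 10.59 and 10.48 in Ly6Chi arrays. Its difference was 0.05 with a 95% interval of -0.10 to 0.19. Mrpl57, a mitochondria-specific protein, read 10.35, 10.31, 10.31 and 10.22 in Ly6Clo arrays, against 10.73, 10.46, 10.57 and 10.36 in Ly6Chi arrays. These did not overlap, and the difference of -0.23 had a limma adjusted p of 0.052. Mrpl23 read 9.88, 10.01, 9.69 and 9.95 in Ly6Clo arrays, against 10.21, 10.07, 10.13 and 9.95 in Ly6Chi arrays, a difference of -0.21 (limma adjusted p 0.083).

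In the small subunit, Mrps16 had the largest called difference lower in Ly6Clo. Its bacterial homolog acts in assembly of the small subunit. 1448869_a_at read 9.34, 9.36, 9.21 and 9.36 in Ly6Clo arrays, against 9.91, 9.70, 9.73 and 9.68 in Ly6Chi arrays. The subsets did not overlap, with replicate 1 the highest Ly6Chi array. The difference was -0.44 ± 0.07 (SE, n = 4 each), or 1.35-fold, with a limma adjusted p of 0.00053.

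Mrps35, a mitochondria-specific protein on the side where mRNA enters, read 8.08, 8.16, 8.18 and 8.01 in Ly6Clo arrays, against 8.65, 8.33, 8.45 and 8.44 in Ly6Chi arrays (1452111_at). The subsets did not overlap, and the difference was -0.36 ± 0.08 (SE; limma adjusted p 0.004). Of 8 tested probe sets around mRNA entry and decoding, this was the only one called (12.5%, against 15.9% called lower among all tested). Mrps12, whose bacterial homolog guards decoding accuracy, differed by -0.16 (limma adjusted p 0.15).

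Mrps9, Mrps10 and Mrps11, homologs of bacterial proteins of the small subunit head and platform, were lower in Ly6Clo with their brightest probe sets. Mrps9 read 7.94, 8.14, 8.24 and 7.86 in Ly6Clo arrays, against 8.45, 8.34, 8.35 and 8.47 in Ly6Chi arrays (1448921_a_at), a difference of -0.36 (limma adjusted p 0.0075). Mrps10 read 7.97, 7.97, 7.86 and 7.95 in Ly6Clo arrays, against 8.38, 8.26, 8.21 and 8.14 in Ly6Chi arrays (1428153_at), a difference of -0.31 (limma adjusted p 0.0038). Neither overlapped between subsets. Mrps11 (1460195_at) read 7.80, 7.74, 7.67 and 7.74 in Ly6Clo arrays, against 8.24, 8.04, 7.97 and 7.85 in Ly6Chi arrays, a difference of -0.29 (limma adjusted p 0.02). It did not overlap either, but was not called without replicate 3 of Ly6Clo (limma adjusted p 0.054). A second called Mrps9 probe set, 1418034_at, read 7.22, 7.47, 7.29 and 7.27 in Ly6Clo arrays, against 7.67, 7.53, 7.50 and 7.64 in Ly6Chi arrays, with no overlap (-0.27, limma adjusted p 0.014). Both of these Mrps9 probe sets were not called without both arrays numbered 1 (limma adjusted p 0.055 and 0.096). Mrps9 also had the uncalled probe sets 1435843_x_at (-0.14) and 1439210_at (0.10), with limma adjusted p of 0.14 and 0.33. The dimmer tested probe sets 1458999_at of Mrps10 (0.04, limma adjusted p 0.79) and 1455233_at of Mrps11 (-0.0005) were not called either.

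Mrps28 had a call at the edge of the threshold. 1452585_at read 7.75, 7.94, 7.54 and 7.65 in Ly6Clo arrays, against 8.23, 8.05, 8.03 and 7.78 in Ly6Chi arrays, with overlap. Its difference was -0.30 (limma adjusted p 0.048), and 10 of 19 alternative settings did not call it, with limma adjusted p up to 0.17. Among these were leaving out replicate 1, 3 or 4 of Ly6Clo or replicate 1, 2 or 3 of Ly6Chi. Mrps14, Mrps15 and Mrps34 also had probe sets called lower in Ly6Clo. Differences were -0.25, -0.27 and -0.26 (2 probe sets of Mrps15) and -0.19, with limma adjusted p of 0.012, 0.025, 0.046 and 0.046. Another tested probe set of Mrps14, 1420488_at, and of Mrps15, 1430100_at, differed by -0.02 each (limma adjusted p 0.88 and 0.86).

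Mrps6, a homolog of a bacterial platform protein, was higher in Ly6Clo with both probe sets. 1424440_at read 7.19, 7.46, 7.03 and 7.33 in Ly6Clo arrays, against 6.93, 6.91, 6.91 and 6.63 in Ly6Chi arrays, with no overlap. The difference was 0.41 ± 0.10 (SE), or 1.33-fold, with a limma adjusted p of 0.0089. The second probe set, 1447585_s_at, read 7.54, 7.87, 7.33 and 7.99 in Ly6Clo arrays, against 7.39, 7.33, 7.02 and 6.85 in Ly6Chi arrays. It overlapped, with a difference of 0.54 ± 0.15 (SE; limma adjusted p 0.02), and was not called without replicate 2 or 4 of Ly6Clo or replicate 4 of Ly6Chi (0.062, 0.06 and 0.055 as limma adjusted p).

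Mrps21 was the one gene whose probe sets were called in opposite directions. The brighter, 1422451_at, read 10.01, 9.98, 9.90 and 9.92 in Ly6Clo arrays, against 10.33, 10.27, 10.37 and 10.11 in Ly6Chi arrays. It did not overlap (-0.32 ± 0.07 SE, limma adjusted p 0.0043) and was called in all 19 alternative settings. The dimmer, 1459677_at, read 6.66, 6.60, 6.43 and 6.56 in Ly6Clo arrays, against 6.52, 6.23, 6.05 and 6.07 in Ly6Chi arrays. It overlapped, its Ly6Chi mean of 6.22 lay below the table median of 6.36, and its difference was 0.35 ± 0.10 (SE; limma adjusted p 0.024). The call of the dimmer one was lost without replicate 1, 2 or 4 of Ly6Clo, or replicate 3 or 4 of Ly6Chi (limma adjusted p 0.052 to 0.067).

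The brightest small subunit probe sets without a call were those of Mrps18c, Mrps33 and Mrps24, with differences of -0.12 each. Mrps18c read 10.15, 10.11, 10.01 and 10.02 in Ly6Clo arrays, against 10.34, 10.27, 10.16 and 10.02 in Ly6Chi arrays. Mrps33 read 9.63, 9.67, 9.60 and 9.59 in Ly6Clo arrays, against 9.88, 9.69, 9.74 and 9.65 in Ly6Chi arrays. All 3 overlapped. Mrps24 (1450865_s_at) read 9.57, 9.65, 9.48 and 9.57 in Ly6Clo arrays, against 9.76, 9.73, 9.71 and 9.53 in Ly6Chi arrays.

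Of 32 tested probe sets of small subunit proteins with bacterial homologs, 10 were lower in Ly6Clo, 3 were higher and 19 were not called. The share lower was 31.25%, against 15.9% of all tested probe sets. Of 12 probe sets of mitochondria-specific small subunit proteins, 2 were lower and 10 were not called. That share lower, 16.7%, was near the share of all tested probe sets. Mrps18a and Mrps30 carry small subunit names but sit in the large subunit of the mammalian ribosome. Neither was called, with differences of -0.18 and -0.21 (limma adjusted p 0.12 and 0.066). Mrps36, now assigned to the 2-oxoglutarate dehydrogenase complex, differed by -0.15 (limma adjusted p 0.33).

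Agreement between probe sets of a gene was counted in each subunit. No such count was made over all genes of the array, and the difference between the subunits was not tested. Of 22 large subunit genes with several tested probe sets, 6 had all of them called lower in Ly6Clo, 13 had none called and 3 had some called. Those 6 were Mrpl48, Mrpl39, Mrpl28, Mrpl9, Mrpl52 and Mrpl41. Of 12 such small subunit genes, 0 had all called lower in Ly6Clo, 1 (Mrps6) had all called higher, 5 had none called, 5 had some called and 1 (Mrps21) had opposite calls. Mrpl15 had 6 tested probe sets with differences of -0.22 to 0.22, of which only 1435232_x_at was called (limma adjusted p 0.023).

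**Figure D3:**
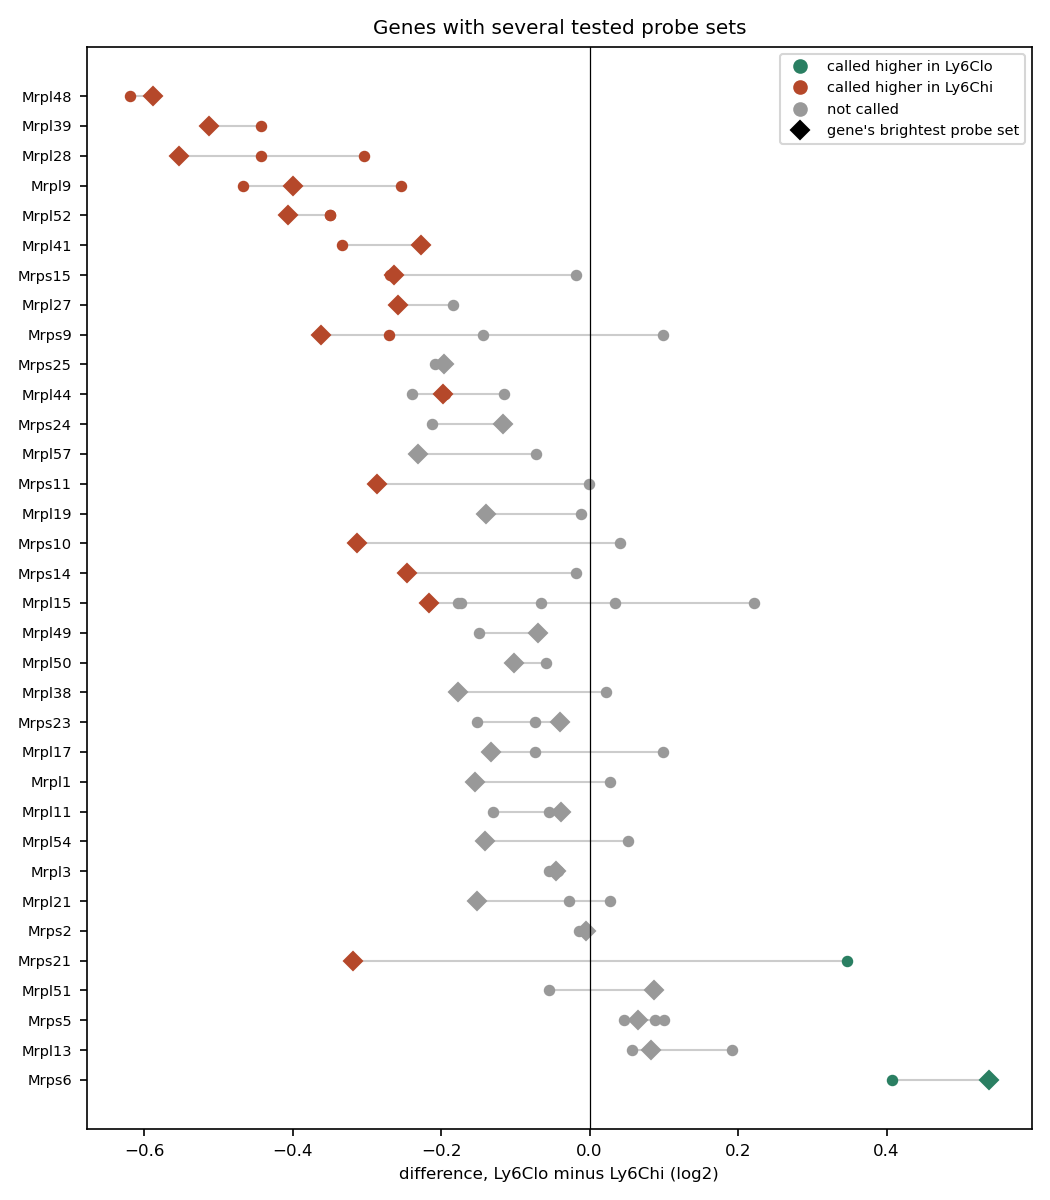
Difference (Ly6Clo minus Ly6Chi, log2) of each tested probe set for the 34 genes with several; diamonds mark the brightest probe set of the gene and colours the call. The 2 tested probe sets of Mrpl48 lie together at -0.62 and -0.59, while those of Mrps21 lie on opposite sides of 0 at -0.32 and 0.35.

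The 25 probe sets not tested, 20 of the large and 5 of the small subunit, had differences of -0.22 to 0.16, and in 0 of them were the subsets without overlap. Of these, 21 passed the median in no array and 4 passed it in 2 or 3 arrays. Just inside the filter lay 1456788_at of Mrpl54 (means 6.35 in Ly6Clo and 6.30 in Ly6Chi) and 1455233_at of Mrps11 (6.32 in both). Just outside lay 1438014_at of Mrpl34 (6.20 in Ly6Clo and 6.42 in Ly6Chi) and 1443165_at of Mrps31 (6.11 in Ly6Clo and 6.04 in Ly6Chi).

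Each tested probe set was then centred on its own mean, and the median over the subunit was taken in each array. For the large subunit this median was -0.08, -0.03, -0.12 and -0.07 in Ly6Clo replicates 1 to 4, against 0.17, 0.09, 0.07 and -0.01 in Ly6Chi replicates 1 to 4. For the small subunit it was -0.06, 0.02, -0.11 and -0.05 in Ly6Clo arrays, against 0.14, 0.07, 0.06 and -0.04 in Ly6Chi arrays. Replicate 3 was thus the lowest Ly6Clo array and replicate 1 the highest Ly6Chi array for both subunits, and replicate 4 of Ly6Chi lay inside the Ly6Clo range for the small subunit. Among the 42 probe sets called lower in Ly6Clo, replicate 4 was the lowest Ly6Chi array for 29 and replicate 1 the highest for 30.

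Platelet and red cell genes varied between the same arrays. The platelet sum was 5547, 3249, 2217 and 3658 in Ly6Clo replicates 1 to 4, against 4369, 2606, 2818 and 1896 in Ly6Chi replicates 1 to 4. The red cell sum was 4530, 1926, 1009 and 2539 in Ly6Clo arrays, against 3043, 1575, 1612 and 939 in Ly6Chi arrays. Both sums were lowest in replicate 3 of Ly6Clo and in replicate 4 of Ly6Chi, and highest in replicate 1 of each subset. The medians of both ribosomal subunits were lowest in the same arrays and highest in replicate 1 of Ly6Chi. Within Ly6Clo, however, they were highest in replicate 2. The part of these cells in the ribosomal levels was not tested.

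**Figure D4:**
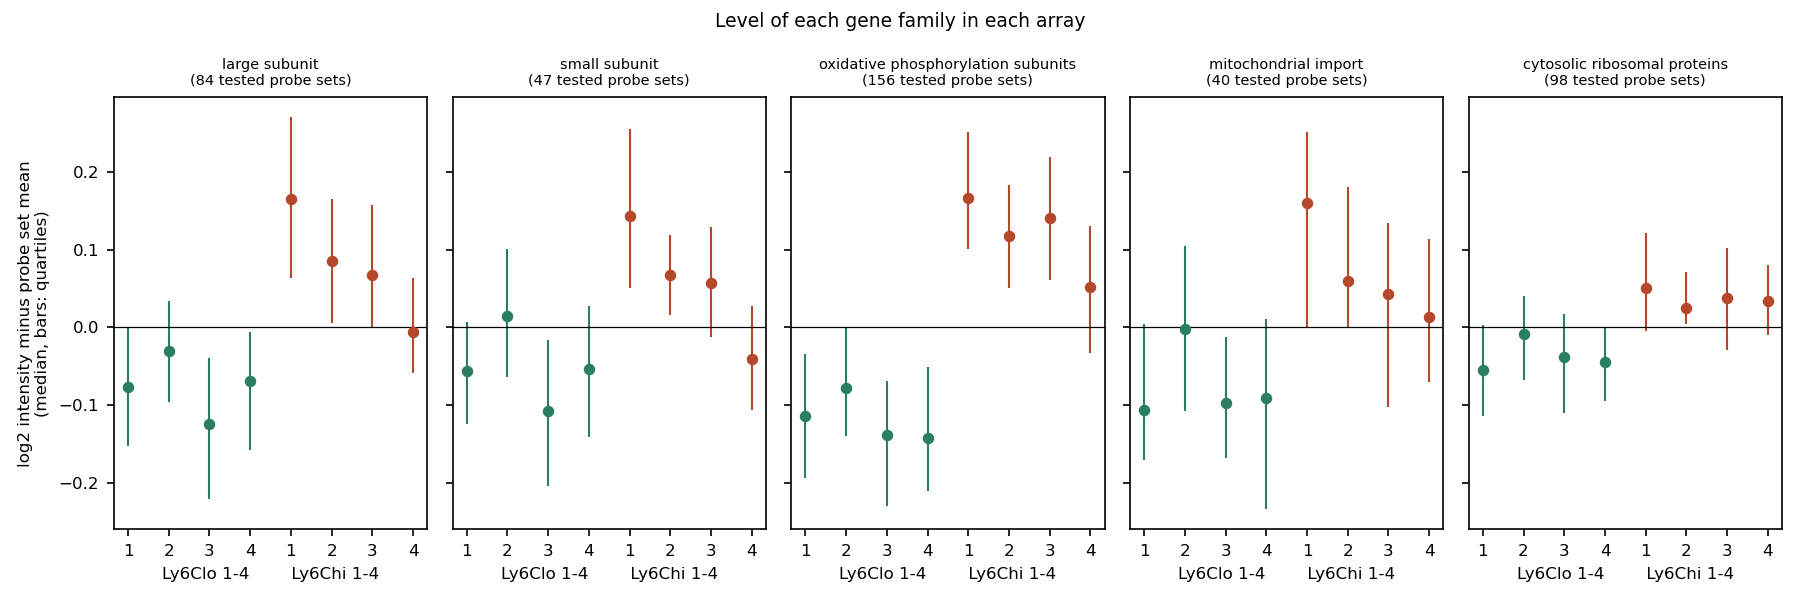
Median over probe sets of the log2 intensity minus each probe set's mean, in each array, with quartile bars, for both subunits and 3 comparison families. Replicate 4 of Ly6Chi lies lowest of the Ly6Chi arrays in both subunits (-0.01 and -0.04), whereas all Ly6Chi medians of the oxidative phosphorylation list lie at or above 0.05.

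The products of mitochondrial translation join nuclear-encoded subunits of oxidative phosphorylation. Oxidative phosphorylation genes were listed by symbol stem, with Sdha to Sdhd included, so that genes other than such subunits can enter. Of 156 tested probe sets of this list, 1 was called higher in Ly6Clo, 92 were called lower and 63 were not called. The share lower was 59.0%, against 15.9% of all tested probe sets. Their median difference was -0.25, against -0.15 for the large and -0.12 for the small mitochondrial ribosomal subunit. The cytosolic ribosome list took every symbol beginning with Rpl or Rps and a number, so that other genes sharing this stem can enter. Of its 98 tested probe sets, 2 were called higher, 21 (21.4%) were called lower and 75 were not called. Their median was -0.07. For mitochondrial import proteins, taken as symbols beginning with Timm or Tomm and a number, 3 of 40 were called higher and 16 (40.0%) lower. The other 21 were not called. The median of this list was -0.15. By the brightest probe set of each gene, 2 of 20 import genes were higher and 6 (30.0%) were lower, against 18.5% lower of all genes. Probe sets lower in Ly6Clo with no overlap between subsets numbered 96 of 156 for oxidative phosphorylation. They numbered 17 of 40 for import and 35 of 98 for the cytosolic ribosome list, against 39 of 131 for both mitochondrial ribosomal subunits. Differences between these families were not tested.

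**Figure D5:**
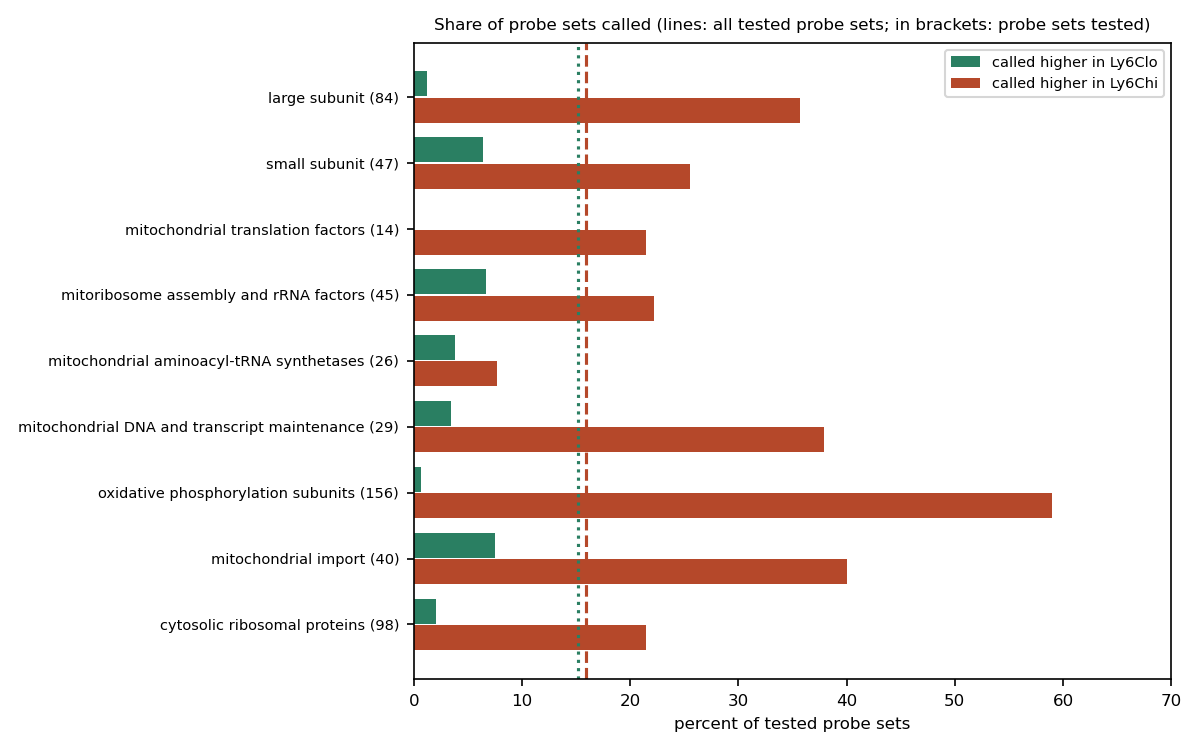
Percent of tested probe sets called higher in Ly6Clo (upper bar) and higher in Ly6Chi (lower bar) for both subunits and 7 related lists. The lines mark 15.2% and 15.9% over all tested probe sets; the large subunit stands at 1.19% and 35.7%, the small subunit at 6.38% and 25.5%.

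Other genes of the pathway were counted by the brightest tested probe set. Over all 11546 genes counted that way, 14.1% were called higher and 18.5% lower in Ly6Clo. Of the 4 genes for ribosomal proteins with other names, Ptcd3, a small subunit protein, was higher in Ly6Clo by 0.30 (limma adjusted p 0.028). Dap3, a small subunit protein that binds GTP, was lower, with a difference of -0.27 (limma adjusted p 0.013), and the other 2 were not called.

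Assembly and rRNA factors had 2 genes higher in Ly6Clo, 7 lower (30.4%, against 18.5% of all genes) and 14 not called. Noa1, a GTPase of mitochondrial translation, read 6.78, 7.04, 6.71 and 7.07 in Ly6Clo arrays, against 7.66, 7.68, 7.67 and 7.54 in Ly6Chi arrays. These did not overlap, and the difference was -0.74 (limma adjusted p 6.1e-05). Rbfa, which matures the small subunit rRNA, differed by -0.54 (limma adjusted p 6.7e-05). Nsun4, an rRNA methyltransferase, and Mtg2, a GTPase of large subunit assembly, were higher in Ly6Clo by 0.27 and 0.27 (limma adjusted p 0.0098 and 0.011).

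The translation factor list also held Oxa1l and Mtfmt, which act beside the ribosome. Of its 11 genes, 0 were higher in Ly6Clo, 2 were lower (Oxa1l and Mtfmt) and 9 were not called by limma. The share lower was 18.2%, near the 18.5% of all genes. At an unadjusted limma p under 0.05, 0 were higher and 3 were lower. Oxa1l, which inserts new chains into the inner membrane, differed by -0.45 (limma adjusted p 0.00053). Mtfmt, which formylates the initiator tRNA, differed by -0.21 (limma adjusted p 0.038). Of 17 mitochondrial aminoacyl-tRNA synthetases, 0 were called higher by limma, 2 were lower and 15 were not called. The share lower was 11.8%, below the 18.5% of all genes. At an unadjusted limma p under 0.05, 2 of 7 were higher. The called ones were Fars2 at -0.56 and Iars2 at -0.36 (limma adjusted p 4.7e-05 and 0.0041).

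Of 18 genes that maintain mitochondrial DNA or its transcripts, 1 was higher in Ly6Clo, 9 were lower and 8 were not called. Pnpt1, an RNA-degrading enzyme, differed by -0.52 (limma adjusted p 0.0062), and Hsd17b10, a subunit of the tRNA-processing enzyme, by -0.50 (limma adjusted p 0.00023). Mterf1a, of the transcription terminator family, was higher by 0.28 (limma adjusted p 0.01).

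Promoters of 67 of the 76 genes were found in the RefSeq table, as 73 entries of 300 bases, from 250 before to 50 after the start. Motifs were searched on both strands. The NRF1 core GCATGCGC lay in 8 of 73 entries, against 2.71% of all 32851 promoters. In 3 of them (4.11%, against 0.971% of all), those of Mrpl9, Mrpl32 and Mrpl39, matches on the 2 strands overlapped by 6 bases. The ETS site CCGGAAG lay in 25 entries (34.2%, against 8.86% of all).

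Split by the call of the brightest probe set, the ETS site lay in 10 of 25 genes lower in Ly6Clo (40.0%) and in 15 of 40 genes not called (37.5%). The core of the NRF1 site lay in 5 of those 25 genes and 3 of those 40. Mrpl14 and Mrps6, both higher in Ly6Clo, held none of the motifs in their entries. These are matches of letters, and no binding was measured.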

How the data were processed

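RNA of 4 Ly6Clo and 4 Ly6Chi monocyte samples was measured on Affymetrix 430 2.0 arrays, grouped by the labels. The deposited intensity values were linear and already comparable between arrays (medians 80.6 to 83.1). GCRMA and MAS5 are listed in the submitters' processing notes; which of them made these values, and their versions, are not given in the sources used here. The long in vitro transcription can alter measured ratios.

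Log2 was taken with no pseudocount. Symbols came from the platform annotation: of 45101 probe sets, 64 are controls, 34945 have 1 symbol, 932 several and 9160 are unnamed here. Probe sets over the table median in at least 4 of 8 arrays (22831) entered limma 3.58.1 under R 4.3.3, with lmFit and eBayes, two-sided, and Benjamini-Hochberg adjustment over all 22831 (called under 0.05, 7108 or 31.1%). The code was tested on simulated data. The alternatives changed the filter, scaling, normalization, pseudocount, array weights, prior, probe set choice, threshold, replicate block and samples used.

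Per subunit, values are given for the 8 called probe sets with the largest difference in each direction, the 3 brightest uncalled, opposite calls and those next to the filter; per pathway list, the 2 largest called each way. Members named beyond these were chosen after their values were seen. The members and all lists were chosen with earlier results of these data known. Promoters were also searched for a YY1 motif, which is not described. Human samples were not analysed here.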

Additional observations from a re-analysis of the deposited data

Results flagged for a closer look

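Among the named probe sets and the array medians of both subunits, 4 of the 64 subset groups of 4 arrays held 1 array far from the other 3, by Dixon's criterion at the 95% level, where chance gives about 1 in 20. Mrpl39 1448909_a_at read 9.35 in replicate 3 of Ly6Clo, below the other Ly6Clo arrays. Mrpl24 read 10.49 in replicate 1 of Ly6Clo, the lowest of that subset. Mrps16 read 9.21 in replicate 3 of Ly6Clo, also the lowest. Mrps6 1424440_at read 6.63 in replicate 4 of Ly6Chi, below the other Ly6Chi arrays. The calls of Mrpl39 1448909_a_at, Mrps16 and Mrps6 1424440_at remained in every alternative that left out 1 array, and Mrpl24 was called in none.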

How the results depend on the processing

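Of 28 named and tested probe sets, 19 kept their direction and their side of the threshold in every alternative, 6 lost the call in at least 1, 2 gained it in at least 1 (Mrpl57 and Mrpl23) and 1 turned its sign. That one, Mrps11 1455233_at, lay at -0.0005; it read -0.0619 to 0.0544 with arrays left out 1 at a time, above 0 in 4 of these (0.0147, 0.0544, 0.0298 and 0.0142), and 0.0211 without both arrays numbered 1. With arrays left out 1 at a time, calls lower in Ly6Clo were 22 to 31 (large) and 7 to 13 (small), calls higher in Ly6Clo were 1 (large) and 1 to 3 (small), and calls over all probe sets were 6229 to 6761. The medians then were -0.18 to -0.12 (large) and -0.17 to -0.08 (small). Without both arrays numbered 1, calls lower in Ly6Clo were 18 (large) and 4 (small). At an adjusted p under 0.01 they were 15 and 5 (10.6% of the small subunit, against 11.4% of all), with 1 higher in Ly6Clo in the small subunit. With the brightest probe set for each gene refitted, 1 small subunit gene was higher in Ly6Clo and 3895 genes were called in all. With probe sets averaged by gene, 1 small subunit gene was higher in Ly6Clo, 7 were lower and 3980 genes were called in all. With no filter, calls lower in Ly6Clo were 23 and 9. A replicate block gave 29 and 12 calls lower in Ly6Clo and 7164 in all. Deviations of same-numbered arrays correlated at 0.27, 0.34, -0.03 and -0.10. Replicates 1 and 2 of Ly6Clo correlated best with their own number in Ly6Chi. Replicate 3 of Ly6Clo correlated best with replicate 4 of Ly6Chi (0.55), and replicate 4 of Ly6Clo with replicate 3 of Ly6Chi (0.30). The main fit used no pairing, and the replicate block paired arrays by number only. Whether arrays of different subsets came from the same sort was not tested. The cause of the shifts in calls and medians was not tested, beyond the fewer arrays or probe sets that enter some fits. Signal limits the 25 dim probe sets, which were not tested.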
